A study of Mus musculus with 3 samples.

Results

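Vascular and leptomeningeal fibroblast-like nuclei made up 363 of the 35322 nuclei in 3 single-nucleus RNA-seq libraries of mouse hippocampus. A nucleus was counted as one of them when at least 3 of 10 genes (Ranbp3l, Slc6a20a, Cped1, Bmp6, Colec12, Slc6a13, Lama1, Slc47a1, Foxd1 and Mgp) each had 1 or more unique molecular identifiers (UMIs, the molecules counted). It also had to lack neuronal signal (Slc17a7, Gad1, Gad2 and Plk5, at most 1 UMI together) and Aqp4, Csf1r and Mog (0 UMIs). Choroid plexus genes (Folr1, Kl, Clic6) and pericyte genes (Atp13a5, Vtn, Abcc9) were each allowed at most 1 UMI. The control library came from untreated mice and the second from mice given doxorubicin, a chemotherapy drug that poisons topoisomerase II. In the third, doxorubicin was combined with ACY-1083, an inhibitor of the cytosolic deacetylase HDAC6. Each library pooled both frozen hippocampi of 4 mice, so every group was 1 sample, and the labels give no dose, schedule, strain, sex or age. The nuclei were released with a detergent, and the whole tissue was used with no sort for any cell type.

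Fibroblasts of the brain lie in the pia and arachnoid, the thin membranes that cover it, and follow arteries and veins inward in the perivascular space. They make collagens, basement membrane proteins and proteoglycans, secrete proteins such as prostaglandin D synthase into the cerebrospinal fluid, and are a meningeal source of retinoic acid, BMPs and Wnt modulators. Arachnoid barrier cells are sealed by junctions and carry solute carriers and drug efflux pumps, so they separate the fluid of the brain from the dura. Forkhead factors of the Foxc group, Tbx18 and the Zic factors are known from the developing meninges.

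The libraries held 10909, 12221 and 12192 nuclei and 19175447, 21458785 and 62151258 UMIs, with control first, then doxorubicin, then the combination with ACY-1083. All later triplets of values keep this order. The fibroblast-like nuclei were shallow: their median was 835, 843 and 1589.5 UMIs, against 1487, 1485 and 3912.5 over all nuclei. Barcodes shared between libraries numbered 42, 29 and 46 for the 3 pairs of libraries, and none of the shared barcodes was a fibroblast-like nucleus in both. The 2 libraries without ACY-1083 were made with Cell Ranger 4.0.0 and the third with 5.0.0, and the counts of the third followed the length of a gene's introns, so this library is compared with the others only with that limit. Counting intervals (95%, exact) cover counting error only, since there was no second library of any group.

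The share of nuclei that met the rule was 0.697% in control (76 nuclei, exact binomial interval 0.549 to 0.871%), 0.810% with doxorubicin (99 nuclei, 0.659 to 0.985%) and 1.54% with doxorubicin plus ACY-1083 (188 nuclei, 1.33 to 1.78%). The control and doxorubicin intervals overlapped and the third lay above both. When every nucleus was thinned to 500 UMIs before the rule was applied, 39, 51 and 127 nuclei met it, or 0.357, 0.417 and 1.04%. Thinning to an equal depth lowered all 3 shares and kept their order. One of the rule genes, Bmp6, bears on this gap: it had a UMI in 3.95% and 2.02% of the fibroblast-like nuclei of the first 2 libraries and in 56.4% of those of the third. Bmp6 has 151296 intronic bases, so the share in the third library cannot be told apart from the difference in processing.

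**Figure D1:**
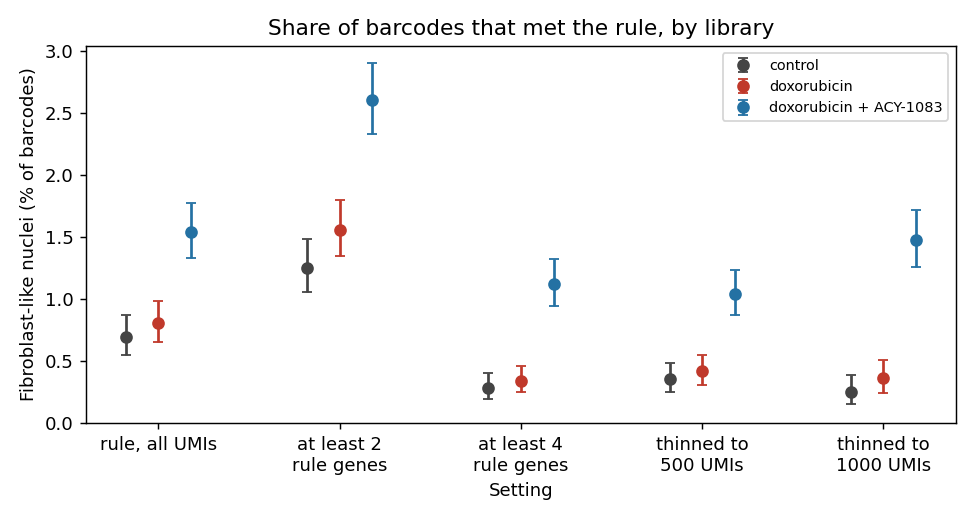
Share of nuclei (percent of all barcodes, vertical axis) that met the rule in each library, with exact 95% binomial intervals, under the rule as given, with 2 or 4 rule genes in place of 3, and after thinning to 500 or 1000 UMIs. The doxorubicin plus ACY-1083 library lies above the others under each of the 5 settings, and the control and doxorubicin intervals overlap in each.

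The nuclei were selected on the UMIs of the rule genes, so the levels of these genes are a description. Levels are in CPM, a gene's UMIs scaled to the UMIs summed over the fibroblast-like nuclei of a library. Cped1 was at 1503, 1231 and 1694 CPM and had a UMI in 73.7, 70.7 and 88.8% of the nuclei. Ranbp3l, a RanBP3-like protein, was at 1097, 1133 and 1359 CPM. Slc6a20a, a transporter of proline and other imino acids, was at 650, 625 and 1098 CPM, and Slc6a13, a GABA transporter of the GAT family, at 623, 762 and 289 CPM. Slc47a1, a proton-coupled exporter of organic cations, was at 1273, 1319 and 578 CPM, and Mgp, an inhibitor of calcification, at 731, 792 and 284 CPM. Foxd1, a forkhead factor whose gene has no intron, was at 515, 664 and 211 CPM. The remaining rule genes were lower in the first 2 libraries and higher in the third: the scavenger receptor Colec12 was at 284, 108 and 662 CPM, the laminin chain Lama1 at 230, 166 and 419 CPM, and Bmp6 at 54.2, 29.3 and 690 CPM.

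Around the threshold, nuclei that met every other condition differed as follows. With exactly 3 rule genes detected there were 45, 57 and 51 nuclei, and with 2, just outside the rule, 61, 92 and 130. The Ptgds level stepped from 4892 to 7641 CPM across the threshold in control, from 4782 to 11850 CPM with doxorubicin and from 618 to 1729 CPM in the third library. The neuronal noncoding RNA Meg3 stepped down at the same place, from 6034 to 3318 CPM, from 7976 to 4291 CPM and from 6132 to 3800 CPM. With 1 rule gene the Ptgds level was 992, 971 and 231 CPM, so that of nuclei with 2 rule genes lay between those of nuclei with 1 and with 3 in each library.

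The label was checked against 12 fibroblast markers that the rule does not use, and all 12 were detected in each library. Their summed level was 18580, 17050 and 8946 CPM in the fibroblast-like nuclei and 690, 830 and 345 CPM in the 34636 nuclei that were neither fibroblast-like nor in a gate for choroid plexus epithelium, pericytes or endothelium (the remaining nuclei). Ptgds (chromosome 2, 25466709 to 25470046, mm10) encodes the prostaglandin D synthase that is a major meningeal secretory protein. It was at 14470, 13580 and 5151 CPM, against 512, 606 and 232 CPM in the remaining nuclei. Ptgds thus made up most of the summed level in each library, in both sets of nuclei. Thinned to 500 UMIs, 75, 80.8 and 68.1% of the fibroblast-like nuclei had a Ptgds UMI, against 13.2, 18.1 and 6.45% of nuclei in a neuron gate. Unthinned, the shares were 86.8, 86.9 and 84.6% against 46.3, 55.0 and 58.4%, with neuron medians of 2380, 2396 and 7897.5 UMIs. Ptgds UMIs were thus more frequent than in the neuron gate, and the source of the UMIs in neurons was not tested.

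Slc7a11 (chromosome 3, 49892526 to 50443614, minus strand), the cystine and glutamate exchanger known from the pia, was at 1598, 1515 and 1469 CPM. It had a UMI in 38 of 76, 52 of 99 and 106 of 188 fibroblast-like nuclei and in 1.91, 2.27 and 3.24% of nuclei in the neuron gate. After thinning, the shares were 40.8, 41.4 and 44.7% against 0.545, 0.509 and 0.414%. Of the fibrillar collagen genes, Col1a2 was at 312, 195 and 160 CPM, Col3a1 at 122, 48.9 and 68.5 CPM and Col1a1 at 94.8, 58.6 and 38.1 CPM. Dcn, which encodes the collagen-binding proteoglycan decorin, was at 379, 293 and 274 CPM and had a UMI in 17.1, 22.2 and 24.5% of the nuclei. These matrix genes were thus detected in each library, and Dcn was detected in a minority of the nuclei at this depth. The lipocalin gene Apod was at 962, 821 and 700 CPM and the growth factor gene Igf2 at 122, 58.6 and 38.1 CPM. Among the transcription factors of the list, Tbx18 was at 217, 108 and 109 CPM, Foxc1 at 135, 225 and 58.3 CPM and Bnc2 at 149, 108 and 860 CPM. Lum, which encodes lumican, was lowest of the 12 in UMIs, with 27.1, 39.1 and 20.3 CPM.

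Markers of other cells were counted in the same way. The 5 border macrophage markers were at 0 UMIs in control and doxorubicin, where 3 UMIs would be 40.6 and 29.3 CPM, and summed to 17.8 CPM in the third library. Smooth muscle markers summed to 135, 78.2 and 53.3 CPM, against 19.2, 19.1 and 8.59 CPM in the remaining nuclei. Acta2 and Cnn1 were at 0 in each library. Endothelial markers summed to 461, 332 and 416 CPM against 32.9, 45.6 and 50.9 CPM in the remaining nuclei. Pericyte markers, 3 of which the rule limits, summed to 433, 323 and 246 CPM against 53.4, 61.3 and 46.1 CPM, and astrocyte markers to 1246, 1163 and 1261 CPM against 843, 928 and 1024 CPM. Ependymal markers summed to 135, 48.9 and 30.4 CPM against 28.7, 33.5 and 15.4 CPM. Oligodendrocyte precursor markers, with 4, 5 and 10 UMIs, summed to 54.2, 48.9 and 25.4 CPM against 39.95, 41.7 and 16.6 CPM. Oligodendrocyte markers were lower, at 758.5, 889 and 424 CPM against 1003, 1018 and 836 CPM, and so were microglial markers. The rule limits a gene of each of these 2 classes. Smooth muscle, endothelial, pericyte and astrocyte markers were thus higher in the fibroblast-like than in the remaining nuclei. Precursor and ependymal markers were higher in value. The counting intervals of the precursor markers in each library, and of the ependymal markers with doxorubicin, included the level of the remaining nuclei. The part of all these markers in the differences given next was not tested. Choroid plexus markers were higher as well, at 2980, 4739 and 2232 CPM against 1370, 3002 and 964 CPM in the remaining nuclei. In the fibroblast-like nuclei most of these UMIs (220, 485 and 880) were Ttr (206, 459 and 754), and Otx2 was at 0 in each library. Ttr, which encodes the thyroid hormone carrier transthyretin, was at 1272, 2875 and 780 CPM in the remaining nuclei. Neuronal markers summed to 3711, 5062 and 3310 CPM against 21530, 20020 and 8630 CPM in the remaining nuclei. Clusters, given further on, went against the label when neuronal or astrocyte markers exceeded all fibroblast markers, rule genes included. The nuclei were selected on rule genes, so this criterion leans toward the label. By fibroblast markers outside the rule alone, 50 control and doxorubicin nuclei clustered under Slc47a1 were at 3701 CPM, below their neuronal markers at 4262 CPM. In the third library 2 clusters went against the label with rule genes included. One held 9 nuclei led by neuronal genes such as Nrg1 and Dpp10, with 661 CPM of fibroblast markers outside the rule. The other held 6 nuclei led by astrocyte genes such as Gpc5 and Slc1a2. These clusters held 69556 and 16305 of the 394267 UMIs of the fibroblast-like nuclei of that library. Levels of the third library include them unless they are said to be left out. Of the fibroblast-like nuclei, 2, 3 and 7 were among the 5% of their library with the highest doublet scores.

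**Figure D2:**
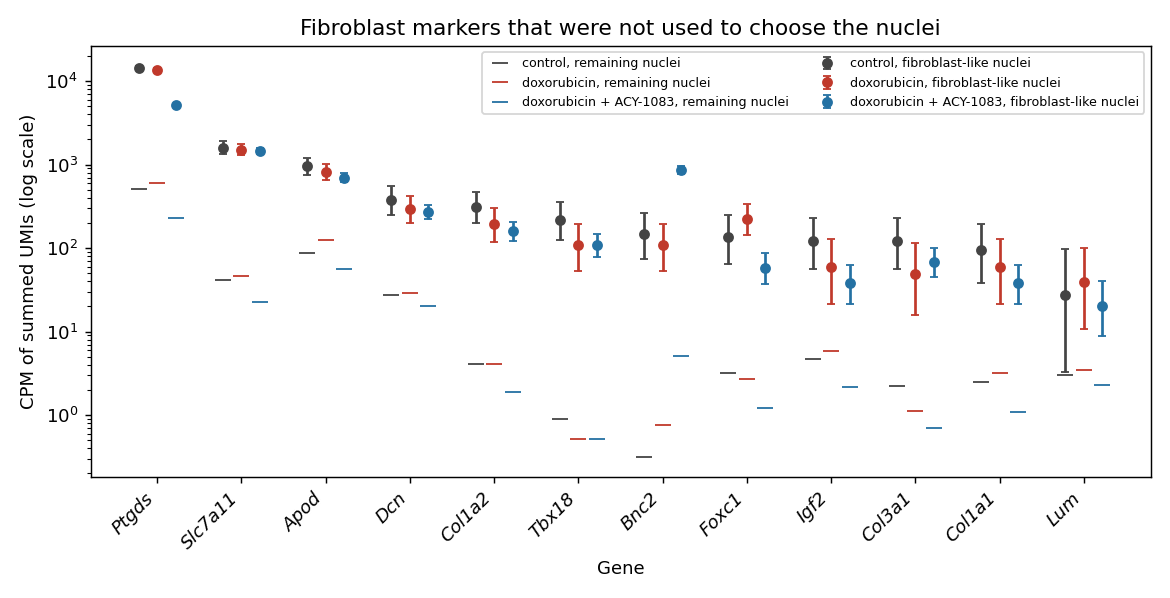
Level (CPM, log axis) of the 12 fibroblast markers that the rule did not use, in each library, for the fibroblast-like nuclei (circles with exact 95% Poisson intervals) and the remaining nuclei (dashes). The circles lie above the dashes for all 12 genes in each of the 3 libraries, from Ptgds at 14470 CPM in control down to Lum at 20.3 CPM in the third library.

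Genes outside the rule were then compared with the remaining nuclei, with UMIs summed per library and population, the library as replicate and block (n = 3), and edgeR's quasi-likelihood test with Benjamini-Hochberg adjustment over all genes tested. Of 2525 genes that passed the filter on low counts and were used neither by the rule nor by a gate, 498 were higher in the fibroblast-like nuclei (19.7%) and 675 lower (26.7%) at an adjusted p under 0.05. A gene could pass that filter through the fibroblast-like nuclei alone, so these counts describe the genes that passed. With no such filter, 1433 of 26673 genes were higher (5.37%) and 2141 lower (8.03%). Without the doxorubicin plus ACY-1083 library the counts were 331 and 298, of fewer genes tested. The genes named next are among the 15 with the largest difference among the 380 that were higher in every library with at least 50 CPM in each. The nuclei were selected and the genes tested in the same libraries, and the 3 libraries differ in treatment. One fit covered the fibroblast-like nuclei, the gates and the remaining nuclei, so the error is shared over these populations. Each SE was derived from the log2 difference and its test statistic, and is not a spread over the 3 libraries. The block takes up library differences common to all populations. The remaining spread includes treatment differences that vary between populations. Without the block, 94 genes were higher and 56 lower.

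Several of the named genes encode transporters. Slc22a8, the organic anion transporter OAT3 that clears drugs and metabolites, was at 217, 303 and 251 CPM against 3.05, 2.92 and 2.10 CPM in the remaining nuclei (log2 difference 6.45 ± 0.29, SE, n = 3 libraries, adjusted p = 2.26e-17, edgeR). It was 71.1 to 119 times higher in the 3 libraries. It was not called against the pericyte gate (128, 196 and 81.6 CPM, adjusted p = 0.0798, edgeR) or the endothelial gate (49.9, 225 and 140.5 CPM, adjusted p = 0.127, edgeR). Slc13a4, a sodium-coupled sulfate transporter, was at 366, 264 and 200 CPM against 6.20, 6.59 and 3.55 CPM (log2 5.48 ± 0.27). Slc7a11 had a log2 difference of 5.27 ± 0.29. Abcb1a, a P-glycoprotein gene whose product exports doxorubicin among many drugs, was lower in level, with 54.2, 58.6 and 117 CPM against 2.68, 2.31 and 2.33 CPM (log2 4.97 ± 0.40).

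Other named genes encode matrix or secreted proteins. Col1a2 (chromosome 6, 4504814 to 4541544), the second chain of type I collagen, had a log2 difference of 5.93 ± 0.37 (adjusted p = 2.54e-14, edgeR), from 4.05, 4.10 and 1.91 CPM in the remaining nuclei. Aebp1, a collagen-binding protein of the matrix, was at 650, 577 and 200 CPM (log2 5.44 ± 0.26). Hmcn1, which encodes the large matrix protein hemicentin, was at 163, 254 and 155 CPM (log2 5.07 ± 0.33), and Sned1, another matrix protein, at 908, 664 and 502 CPM (log2 4.98 ± 0.24). Itih5, of the family that modifies hyaluronan, was at 339, 244 and 200 CPM. Cp, the copper-carrying ferroxidase ceruloplasmin, was at 366, 205 and 581 CPM (log2 5.02 ± 0.25). These genes encode proteins that are secreted or deposited outside the cell.

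Zic4, a zinc finger factor of the meninges, was at 474, 567 and 218 CPM against 11.7, 17.4 and 6.13 CPM (log2 4.99 ± 0.26). The other named genes were the RNA-binding protein gene Rbpms at 163, 186 and 254 CPM, the lectin gene Clec2d at 203, 283 and 134 CPM, and Phldb2, which anchors microtubules at the cell cortex, at 230, 195 and 634 CPM. Their log2 differences were 5.51, 5.44 and 5.36. Clec2d was lower than in the endothelial gate, at 449, 451 and 787 CPM there (log2 −1.64 ± 0.39, adjusted p = 0.0025, edgeR). Rbpms was not called against pericytes or endothelium (adjusted p = 0.627 and 0.88, edgeR).

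**Figure D3:**
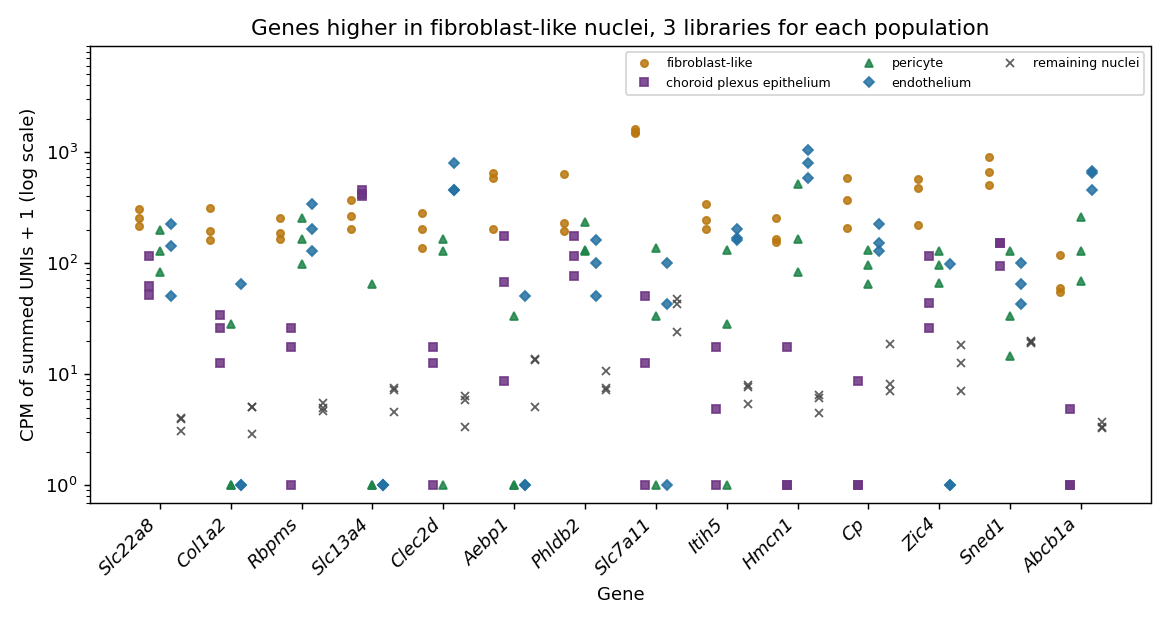
Level (CPM plus 1, log axis) of 14 of the 15 genes with the largest difference from the remaining nuclei, in 5 populations (fibroblast-like, choroid plexus epithelium, pericyte and endothelial gates, remaining nuclei) of each library. The fibroblast-like nuclei lie above the remaining nuclei for each gene and library, while the endothelial gate lies above the fibroblast-like nuclei in each library for Abcb1a (649, 451 and 674 CPM), Hmcn1 (1048, 579 and 801 CPM) and Clec2d (449, 451 and 787 CPM).

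The promoters of these genes were searched for TGTTTAC, a core bound by forkhead factors, on either strand, since forkhead genes are among those that mark these nuclei. RefSeq windows of 300 bases around the start were matched for 13 of the 15 genes (14 windows, assembly GRCm38.p6), and 3 of the windows held the motif, against 1199 of 32851 windows of that length (3.65%). The stretches of Hmcn1 (chr1:150993586-150993685, minus strand) and Slc7a11 (chr3:50443764-50443863, minus strand) are shown because these 2 genes differ within the fibroblast-like nuclei in opposite ways, as given further on. Both read 5′ to 3′ on the gene's strand, with the motif in capitals, which ends 219 and 225 bases before the start:
Hmcn1: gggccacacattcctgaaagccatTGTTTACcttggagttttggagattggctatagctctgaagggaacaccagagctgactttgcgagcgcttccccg
Slc7a11: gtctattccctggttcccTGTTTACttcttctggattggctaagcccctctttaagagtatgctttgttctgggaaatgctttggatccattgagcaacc
The third match was in the Abcb1a window, which lies outside and upstream of the gene's interval in the annotation used here for gene positions. A match describes these letters only, and no binding was measured.

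Gene lists describe what else was higher. They were chosen with earlier results of these data known, so their counts are a description and no test. Among the genes that passed the filter, 19.7% were higher and 26.7% lower. List counts come from the fit with no filter on low counts, in which 5.37% of all genes were higher than in the remaining nuclei and 8.03% lower, with a median log2 difference of −0.74. In that fit 21 of 28 solute carriers and transporters were higher, and 1 was lower (Slc7a14), with a median of 2.43. Slc38a2 (chromosome 15, 96687392 to 96699730), the amino acid transporter SNAT2, was at 3196, 4661 and 1309 CPM against 301, 307 and 139 CPM (log2 3.37 ± 0.24, adjusted p = 1.13e-12, edgeR, in the fit with the filter). The efflux pump gene Abcg2 was at 135, 244 and 185 CPM (log2 3.33 ± 0.30). Slc22a6, another organic anion transporter, was at 135, 215 and 55.8 CPM, and Slc13a3, a carrier of dicarboxylates, at 135, 117 and 98.9 CPM.

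Matrix lists were higher for the most part: 12 of 17 fibrillar and interstitial collagens were higher and none lower, with a median log2 difference of 1.77. Of 18 basement membrane genes, 13 were higher and 2 lower (Agrn and Col4a2), and of 30 proteoglycans and glycoproteins 19 were higher and 2 lower (Vcan and Spon1). Fn1, the fibronectin gene, was at 217, 450 and 193 CPM, and the elastic fibre gene Efemp1 at 67.7, 137 and 223 CPM. Lama2 was at 108, 147 and 652 CPM. Ogn and Bgn, proteoglycan genes of the decorin family, were at 163, 87.9 and 58.3 CPM and at 163, 78.2 and 25.4 CPM. Of 24 matrix remodelling genes, 10 were higher, among them Adamtsl3 (67.7, 137 and 408 CPM), and Mmp16 was lower. In these lists more members were higher than lower, while over all genes more were lower, with or without the filter.

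Signals known from the meninges included ligands, carriers and enzymes. Of 18 genes of retinoic acid synthesis and signalling, 9 were higher and none lower. The retinoic acid synthases Aldh1a2 and Aldh1a1 were at 54.2, 58.6 and 140 CPM and at 108, 29.3 and 150 CPM. Of 28 BMP and TGF-beta genes, 11 were higher and 3 lower (Inhba, Acvr1 and Tgfb2). The ligand genes Bmp4, Bmp5 and Bmp7 were among the higher ones, with Bmp4 at 163, 137 and 40.6 CPM, Bmp5 at 40.6, 107 and 157 CPM and Bmp7 at 108, 97.7 and 65.9 CPM. The target genes Id1 (108, 166 and 55.8 CPM) and Id3 (325, 371 and 147 CPM) were higher as well, with log2 differences of 3.33 and 2.76.

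Of 11 genes of the insulin-like growth factor system, 6 were higher, comprising Igf2 and the binding protein genes Igfbp2, Igfbp4, Igfbp5, Igfbp6 and Igfbp7. Igfbp2 was at 149, 107 and 109 CPM. Of 25 Wnt genes, 15 were higher and none lower, among them Rspo3, a Wnt amplifier, at 244, 323 and 160 CPM and the ligand gene Wnt5a at 108, 78.2 and 68.5 CPM. Of 24 axon guidance genes, 5 were higher, including the repellents Sema3a and Sema3d, and 10 lower, including Robo2 and Slit3, which neurons carry. Receptor genes were mixed, with 8 of 21 higher, among them Pdgfra (135, 97.7 and 185 CPM), Pdgfrb (122, 156 and 127 CPM) and the leptin receptor gene Lepr (108, 117 and 96.4 CPM), and 3 lower, Esr1 and Ntrk2 among them.

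Of 33 transcription factors of meningeal fibroblasts, 25 were higher and 1 was lower (Meis2), with a median log2 difference of 4.23. Zic1 was at 610, 489 and 269 CPM (log2 4.59 ± 0.23), Foxp2 at 203, 186 and 543 CPM and Foxc2 at 40.6, 78.2 and 12.7 CPM. Some of the 25 rest on few UMIs: Six2 had 0, 0 and 2 UMIs. Of 15 arachnoid and border genes 11 were higher, and of 14 pial and perivascular fibroblast genes 12 were higher, with none lower in either list. Cdh1, the E-cadherin that arachnoid barrier cells carry, had 0, 5 and 24 UMIs, and the tight junction gene Cldn11 was at 135, 127 and 53.3 CPM. Of 18 p53 targets, 1 was higher (Trp53inp1) and 2 were lower (Plk2 and Bax), and 0 of 11 histone deacetylases were higher and 1 was lower (Hdac9).

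The choroid plexus epithelium, the fluid-secreting layer that adjoins the same stroma, was the first of 3 populations compared directly (27, 35 and 73 nuclei by its gate). Of the 2525 genes, 502 were higher in the fibroblast-like nuclei (19.9%) and 323 lower (12.8%). The counts were 126 and 178 without the doxorubicin plus ACY-1083 library, and 319 genes were higher without the 2 clusters led by neuronal or astrocyte genes. Slc7a2, a cationic amino acid transporter gene, was at 176, 205 and 190 CPM and was not detected in the choroid gate of any library. Alcam, a cell adhesion gene, was at 582, 664 and 2021 CPM against 25.1, 16.6 and 30.9 CPM (log2 5.85 ± 0.43, adjusted p = 8.49e-12, edgeR), and was 23.2 to 65.5 times higher. Slc7a11 was at 0, 49.7 and 11.6 CPM in the choroid gate (log2 6.47 ± 0.49), and Foxp2 at 0, 0 and 7.72 CPM (log2 6.42 ± 0.55). A contrast in the other direction was Enpp2, the lysophosphatidic acid producing enzyme autotaxin, at 433, 342 and 312 CPM against 5840, 5798 and 7025 CPM (log2 −4.02). Slc13a4 was shared: its log2 difference was −0.64 and its adjusted p = 0.056 (edgeR).

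In the fit with no filter, 949 genes were higher than in choroid plexus (3.56%) and 723 lower (2.71%). There, 20 of 33 meningeal transcription factors were higher and 1 lower (Lef1), and 15 of 28 solute carriers were higher and none lower. Collagens divided by kind: 10 of 17 were higher, fibrillar Col1a1, Col1a2 and Col3a1 among them, and the network-forming Col8a1 and Col8a2 were lower. Of the basement membrane genes Col4a3 and Col4a4 were lower.

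Pericytes are the mural cells of capillaries (14, 29 and 31 nuclei). Of the 2525 genes, 95 were higher in the fibroblast-like nuclei (3.76%) and 207 lower (8.20%). Leaving out the doxorubicin plus ACY-1083 library gave 56 higher and 47 lower, and the lower genes numbered 75 without control and 137 without doxorubicin. Slc38a2 was at 255, 228 and 68.0 CPM in the pericyte gate (log2 4.23 ± 0.35, adjusted p = 7.62e-10, edgeR), which put the fibroblast-like nuclei 12.5 to 20.4 times higher. Ptgds had a log2 difference of 4.18 ± 0.35 and Slc7a11 one of 4.05 ± 0.45. Fkbp5, a chaperone gene induced by glucocorticoids, was at 244, 303 and 398 CPM against 0, 0 and 13.6 CPM (log2 5.37 ± 0.71). Dab2, an endocytic adaptor gene, was at 176, 147 and 238 CPM and was not detected in the pericyte gate. That gate held 15680, 30646 and 73575 UMIs in all, so a low level there could be missed, in control above all. Lower than in pericytes were Pdgfrb (638, 946 and 299 CPM in the gate, log2 −1.90 ± 0.35, adjusted p = 0.000285, edgeR) and the chemokine gene Cxcl12 (829, 1044 and 54.4 CPM in the gate, log2 −2.66 ± 0.45). The gate also held endothelial RNA, with Flt1 at 829, 1370 and 285 CPM, and its part in these differences was not tested.

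With no filter, 158 genes were higher than in pericytes (0.592%) and 29 lower (0.109%). Solute carriers numbered 11 of 28 higher and 1 lower, the glucose transporter gene Slc2a1, and 9 of 33 meningeal transcription factors were higher. Of the pial list, 6 of 14 genes were higher (Col3a1, Col1a2, Pdgfra, Dcn, Fbln1 and Itih5). None of the 18 basement membrane genes was called, in either direction. That list had a median log2 difference of 0.93 against 0.16 over all genes, and the small gate of 14, 29 and 31 nuclei limits what could be detected.

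Against endothelium, the cells that line the vessels (22, 37 and 55 nuclei), 144 of the 2525 genes were higher (5.70%) and 235 lower (9.31%), and 111 were lower in a fit without the doxorubicin plus ACY-1083 library. Slc7a11 (log2 5.27 ± 0.52, adjusted p = 4.14e-09, edgeR) and Aebp1 (log2 5.66 ± 0.76) were higher again. Zic1, Lama2, Slc13a4 and Rspo3 were not detected in the endothelial gate of any library. The gate held 20038, 31073 and 71190 UMIs, so a low level could be missed, as for Lama2 in control. The blood-brain barrier transporters went the other way: Abcb1a was at 649, 451 and 674 CPM in endothelium (log2 −2.66 ± 0.38, adjusted p = 2.93e-06, edgeR), and Abcg2 at 699, 451 and 885 CPM (log2 −1.81 ± 0.33). Slc2a1, the glucose transporter GLUT1, was at 40.6, 9.77 and 17.8 CPM in the fibroblast-like nuclei and 848, 708 and 506 CPM in endothelium (log2 −4.80 ± 0.46). Hmcn1, higher than in the remaining nuclei, was lower than in endothelium (log2 −2.01 ± 0.34). Both efflux pump genes thus lay between endothelium and the remaining nuclei.

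With no filter, 326 genes were higher than in endothelium (1.22%) and 176 lower (0.660%). Of 28 solute carriers 14 were higher and 3 lower (Slc2a1, Slc40a1 and Abcc4). Of 33 meningeal transcription factors 10 were higher and 2 lower, Erg and Lef1, which endothelium is known to use. Receptor genes numbered 6 of 21 higher, Pdgfra, Pdgfrb and Lepr among them, and 2 lower, the vascular receptors Tek and Kdr.

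The fibroblast-like nuclei were not uniform. Slc47a1 had a UMI in 22 of 76, 29 of 99 and 35 of 188 of them, and those nuclei differed from the others in many genes. Slc47a1 is a rule gene, nuclei were selected for having 3 rule genes and the pattern was noticed in these data, so the following values are a description with no test. Of the nuclei with Slc47a1, 2, 3 and 6 also had a UMI of Slc6a13, Slc6a20a or Ranbp3l, against 46 of 54, 62 of 70 and 129 of 153 without it. Ranbp3l was at 128, 104 and 67.0 CPM in nuclei with Slc47a1 and 1547, 1756 and 1739 CPM in those without. Cped1 did not differ in this way, at 1537, 1245 and 1719 CPM with and 1488, 1223 and 1687 CPM without. The nuclei with Slc47a1 were somewhat deeper, with medians of 985, 1050 and 2001 UMIs against 769.5, 755 and 1584.

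Outside the rule genes, nuclei with Slc47a1 were higher in a set of transport and signalling genes. Slc4a10, a sodium-coupled bicarbonate transporter gene, was at 1494, 1401 and 4276 CPM with Slc47a1 and 39.7, 110 and 131 CPM without. Slc38a2 was at 7172, 9078 and 4052 CPM against 1349, 1991 and 502 CPM. Rspo3 was at 640, 700 and 581 CPM against 59.5, 94.1 and 36.1 CPM. Hmcn1 was at 470, 571 and 558 CPM against 19.8, 62.7 and 36.1 CPM, and Adamtsl3 at 213, 337 and 1775 CPM against 0, 15.7 and 6.56 CPM. Each of these 5 genes was higher with Slc47a1 in all 3 libraries.

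Other genes were found mainly in the nuclei without Slc47a1. Slc7a11 was at 0, 233 and 11.2 CPM with Slc47a1 and 2341, 2289 and 1897 CPM without. Slc22a8 had 0, 0 and 2 UMIs with Slc47a1 and was at 317, 486 and 318 CPM without. These 2 genes encode transporters. Ptgds was at 8794, 3398 and 514 CPM against 17100, 19740 and 6515 CPM, and Apod was at 256, 233 and 134 CPM against 1290, 1176 and 867 CPM. Dcn did not split alike in the libraries, at 384, 77.8 and 123 CPM with and 377, 423 and 318 CPM without. Ttr, a choroid plexus transcript, was at 2262, 3553 and 1507 CPM with and 3035, 5048 and 2032 CPM without.

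**Figure D4:**
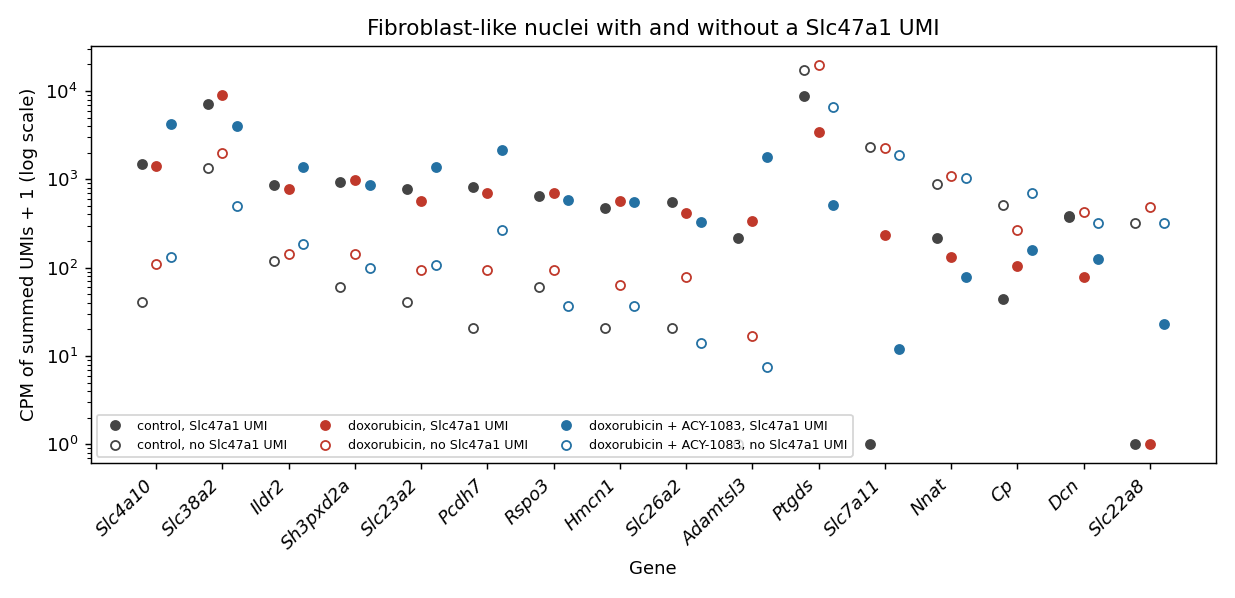
Level (CPM plus 1, log axis) of 16 genes in fibroblast-like nuclei with a Slc47a1 UMI (filled) and without one (open), by library. Slc4a10, Rspo3, Adamtsl3 and Slc38a2 lie higher in the filled points of each library, and Slc7a11 and Slc22a8 in the open points.

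Clusters, built on the most variable genes with rule genes not left out, are also a description and gave a like picture. Slc47a1 itself led a cluster in each clustering, so the picture is not independent of the split above. Control and doxorubicin nuclei together formed 3 clusters, with 27 and 36, 28 and 34, and 21 and 29 nuclei from the 2 libraries. The first was led by Nnat, Ptgds and Slc22a8, the second by Cp, Dcn, Itih5 and Lama2, and the third by Slc47a1, Slc4a10, Rspo3, Slc26a2, Adamtsl3 and Hmcn1. They held 35.5, 36.8 and 27.6% of the control nuclei and 36.4, 34.3 and 29.3% of the doxorubicin nuclei. The Ptgds level was 27610, 10920 and 2422 CPM in the 3 clusters of control and 27330, 10880 and 2539 CPM in those of doxorubicin. Ptgds differed about as much between clusters in one library as in the other. The nuclei of both libraries were clustered together and Ptgds helped to lead the first cluster, so this likeness is partly set by the clustering. In the third library, clustered alone, 30 nuclei were led by Slc47a1, Adamtsl3 and Slc4a10 and 89 by Slc7a11 and Enpp1. A group of 24 was led by Htr2c, Nnat and Ppp1r1a with Ptgds among its leading genes, and one of 10 by Dpp4, Fn1, Cd55 and Cdh1. Htr2c, one of the choroid plexus markers, was at 1393 CPM in the group of 24 and 34.7 CPM in the rest. In that group the choroid plexus markers summed to 4096 CPM and the fibroblast markers outside the rule to 19300 CPM. A further 20 nuclei were led by Rad51b, Dach1 and Itga8.

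The targets of the treatments were scarce. Hdac6 had 0, 2 and 9 UMIs in all fibroblast-like nuclei, in 0, 2 and 8 nuclei. Top2a, the topoisomerase of dividing cells, had 2, 0 and 1 UMIs. Top2b, the form that non-dividing cells keep, was at 135, 108 and 155 CPM (10, 11 and 61 UMIs), and Top1 at 284, 381 and 246 CPM. The p53 targets Cdkn1a (1, 0 and 3 UMIs), Mdm2 (5, 5 and 17), Ccng1 (2, 3 and 1) and Zmat3 (6, 0 and 8) were too few for a comparison. For these 4 genes, Hdac6 and Top2a a difference was not detectable at this depth. None of the 18 p53 targets reached the 40 UMIs required for doxorubicin against control. For the third library against doxorubicin, Sesn1 was the only one of them to reach it (3 and 68 UMIs). Top1 had enough UMIs in both comparisons, with a ratio of 1.34 (0.769 to 2.40) for doxorubicin against control. For the third library against doxorubicin its ratio was 0.646 (0.441 to 0.962), with 281 and 183 CPM in all other nuclei.

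Doxorubicin was compared with control as a ratio of CPM with its exact counting interval, with no test, since each group was 1 library. Of 412 genes with at least 40 UMIs in both libraries together, 39 were higher by 1.5-fold or more (9.47%) and 32 lower by as much (7.77%). The named genes are among the 10 highest and 10 lowest by the interval bound nearest to 1. The median log2 ratio over all 412 genes was 0.01.

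Fn1 (chromosome 1, 71585520 to 71653200) was at 217 CPM in control (16 UMIs) and 450 CPM with doxorubicin (46 UMIs), a ratio of 2.07 (1.15 to 3.93), while all other nuclei were at 31.9 and 32.0 CPM. Slc38a2 was at 3196 CPM (236 UMIs) and 4661 CPM (477 UMIs), a ratio of 1.46 (1.25 to 1.71), with 301 and 307 CPM in all other nuclei. These 2 genes differed between the libraries in the fibroblast-like nuclei and hardly in the rest. Within the 3 clusters Slc38a2 was at 1494, 1032 and 7396 CPM in control and 1816, 1990 and 9462 CPM with doxorubicin, higher in each.

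Other genes were higher with doxorubicin in all other nuclei too. Cox6c, a subunit of cytochrome c oxidase, was at 135 CPM (10 UMIs) and 479 CPM (49 UMIs), a ratio of 3.54 (1.77 to 7.83). Tmsb4x, which encodes the actin-binding thymosin beta 4, was at 447 and 987 CPM, a ratio of 2.21 (1.48 to 3.38), and Elob, an elongin subunit gene, had a ratio of 2.65 (1.24 to 6.29). All other nuclei were at 168 and 243 CPM for Cox6c, 416 and 623 CPM for Tmsb4x and 86.9 and 117 CPM for Elob. Of 12 genes of nuclear-encoded oxidative phosphorylation, 4 were higher past 1.5-fold (Ndufb9, Cox6c, Cox8a and Atp5j) and none lower, with a median log2 ratio of 0.29. Of 30 cytosolic ribosomal protein genes, 8 were higher and 1 was lower, with a median of 0.19. When the ratio was taken less the median of genes of like intron length, 33 of 411 genes were higher (8.03%) and 38 lower (9.25%), and the counts of the 2 lists were 3 of 12 with a median of 0.19, and 2 higher and 2 lower of 30 with a median of 0.16.

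Gria2, a neuronal glutamate receptor gene, was at 935 and 1524 CPM (1.63, 1.22 to 2.20), with 6339 and 6254 CPM in all other nuclei. The neuronal marker sum moved the same way in the fibroblast-like nuclei, from 3711 to 5062 CPM, as did Ttr, from 2790 to 4485 CPM. Their part in the ratios of Gria2, Ank2, Ank3 and Ahi1 was not tested.

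Lower with doxorubicin was Tpm1, a tropomyosin gene, at 528 and 244 CPM (0.463, 0.268 to 0.784). Tpm1 was at 144 and 145 CPM in all other nuclei. H3f3a, a histone H3.3 gene, was at 379 and 205 CPM (0.541, 0.292 to 0.988), and Bsg, which encodes the lactate transporter partner basigin, at 488 and 264 CPM (0.541, 0.316 to 0.916). Others were Ankrd12, Zbtb20, Rsrp1 and the noncoding RNAs Bc1, Kcnq1ot1 and Mir100hg, with ratios of 0.553 to 0.761. For Kcnq1ot1 the interval reached 1.003.

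Apart from Slc38a2, given above, and Cst3, given below, the genes of fibroblast identity named in this paragraph had ratios whose counting intervals included 1. None of the 9 solute carriers with enough UMIs, Slc38a2 among them, was past 1.5-fold in either direction, with a median log2 ratio of 0.07. The ratio was 0.939 for Ptgds (0.866 to 1.02) and 0.948 for Slc7a11 (0.741 to 1.21). Col1a2 (0.627, 0.327 to 1.19), Cp (0.561, 0.302 to 1.03) and the transcription factor gene Nr2f2 (0.548, 0.285 to 1.04) were past 1.5-fold lower, with intervals that reached 1. Igfbp5, a growth factor binding protein gene also secreted by senescent cells, was at 176 and 332 CPM, a ratio of 1.89 with an interval (0.971 to 3.90) that includes 1. Of 4 meningeal transcription factors with enough UMIs, 1 was lower past 1.5-fold and none higher, with a median log2 ratio of −0.36. The 3 pial and perivascular fibroblast genes with enough UMIs had a median of −0.47, with 0 of them above 0. For 7 secreted leptomeningeal proteins the median was −0.09. Of that list Cst3, also a named gene, was at 1463 and 2052 CPM, a ratio of 1.40 (1.11 to 1.79). All other nuclei were at 838 and 1053 CPM for Cst3. Less the median of genes of like intron length, its ratio was 1.20 (0.948 to 1.53).

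**Figure D5:**
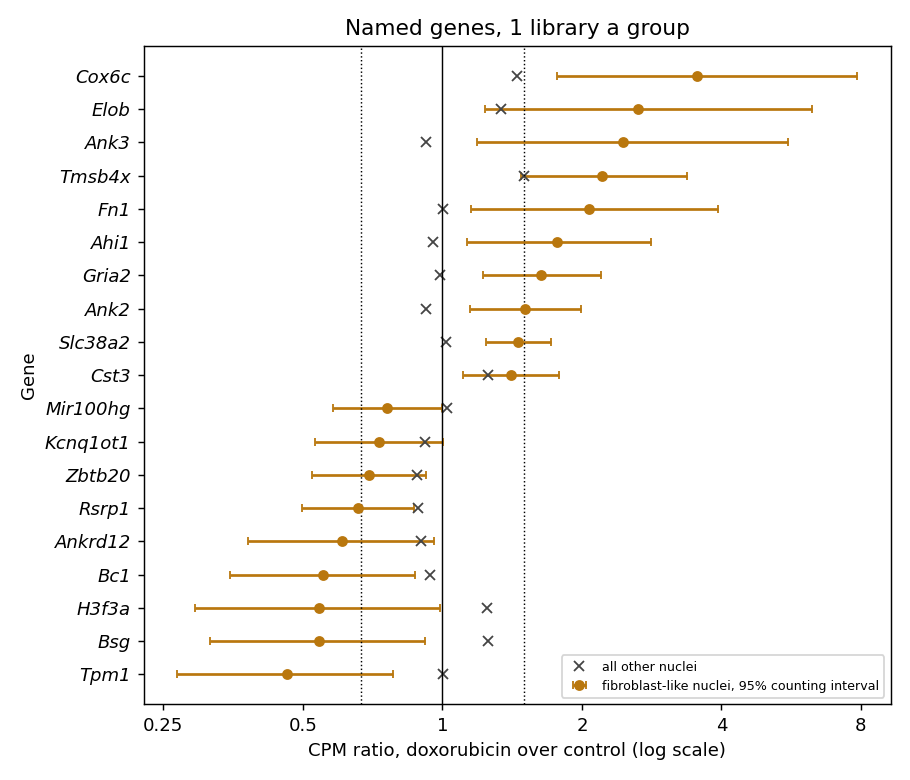
Ratio of CPM, doxorubicin over control (log axis), for 19 of the 20 named genes in the fibroblast-like nuclei with exact 95% counting intervals, and the same ratio in all other nuclei (crosses), with dotted lines at 1.5-fold in each direction. Cox6c has the highest ratio (3.54) and Tpm1 the lowest (0.463), and the crosses of Fn1, Slc38a2 and Tpm1 lie near 1.

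Doxorubicin plus ACY-1083 against doxorubicin mixed treatment with processing. Of 2760 genes with 40 UMIs, 1298 were higher past 1.5-fold in the library with ACY-1083 (47.0%) and 555 lower (20.1%). Without the 2 clusters led by neuronal or astrocyte genes, 992 of 2166 genes were higher (45.8%) and 431 lower (19.9%). Across genes, which are not independent replicates, the log2 ratio followed intron length with a Spearman rho of 0.74 in the fibroblast-like nuclei and 0.80 in all other nuclei. For doxorubicin against control, over 411 genes, rho was −0.04 in the fibroblast-like nuclei and −0.44 in all other nuclei. The tertile of genes with the shortest introns had a median log2 ratio of −0.63 and the tertile with the longest one of 1.72. Taken less the median of genes in the same of 10 classes of intron length, 723 of 2759 genes were higher (26.2%) and 615 lower (22.3%). Ribosomal protein genes show the effect of this step: 67 of 70 were lower before it, and 3 were higher and 9 lower after it. These genes are among those that set the subtracted medians, so the counts do not show that the step removes the processing difference.

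Some of the higher genes had no UMI in the doxorubicin library. Nrg3, a neuregulin gene with 1097320 intronic bases, had 0 and 492 UMIs, at least 42.6-fold higher against a floor of 3 UMIs, and was 69.8-fold higher in all other nuclei. Tbx15, a T-box factor gene of the mesenchyme, had 0 and 118 UMIs, at least 10.2-fold higher, and was 5.29-fold higher in all other nuclei, where it was at 0.468 and 2.48 CPM. Sh3pxd2a and Fn1 were lower in the library with ACY-1083, Sh3pxd2a at 459 and 274 CPM (0.597, 0.420 to 0.859) and Fn1 at 450 and 193 CPM (0.429, 0.293 to 0.633). In all other nuclei Fn1 was also lower, at 32.0 and 16.9 CPM, and Sh3pxd2a was at 61.8 and 57.2 CPM.

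Lists changed with the step as well. BMP and TGF-beta genes were 5 of 7 higher and 1 lower before it, and 4 higher (Bmpr1a, Bmpr2, Tgfbr1 and Smad3) and none lower after it, with a median log2 ratio of 0.77. That median was −0.40 with nuclei of 2 or more rule genes and −0.26 with genes of 20 UMIs or more, so its sign depends on both choices. Axon guidance genes were 12 of 14 higher before it and 3 higher and 6 lower after it, and the 4 histone deacetylases with enough UMIs went from 3 higher to none past 1.5-fold. Of 20 solute carriers, 2 were higher and 8 lower after the step, Slc7a11 among the lower ones although its level was 1515 and 1469 CPM, and its log2 ratio less that of all other nuclei was 0.98. Because the adjustment subtracts a large median from long genes, values for genes such as Slc7a11 and Hmcn1 depend on it. The treatment and the processing of this library cannot be told apart.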

How the data were processed

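Single-nucleus 3' RNA-seq (10x Genomics, v3) of mouse hippocampus was deposited as 3 matrices of raw UMI counts per gene and barcode, 1 library a group. Per the file headers the authors made them with Cell Ranger 4.0.0 (control, doxorubicin) and 5.0.0 (doxorubicin plus ACY-1083), but version 6.0.0, with the mm10 genome, stands in the submitters' processing notes. No source used here states if intronic reads were included. Every deposited barcode had at least 500 UMIs, and none was removed. Doublets were not removed: Scrublet's automatic threshold marked 6, 2 and 346 barcodes, too few in the first 2 libraries to have worked.

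The nuclei, gene lists and comparisons were chosen with earlier results of these data known. UMIs were summed over nuclei. Libraries were compared by CPM ratios with exact intervals (95%, Clopper-Pearson; Poisson for a CPM), for genes with at least 40 UMIs and a fold of 1.5, with 0.5 counts added before log2. The intron-length step subtracts the median log2 ratio of genes in the same of 10 classes of intron length. Populations were compared with edgeR 4.0.16 (quasi-likelihood, filterByExpr, TMM, library as block, common dispersion 0.0273, Benjamini-Hochberg at 0.05). Gates required 2 or 3 detected markers of a type and few rule genes. DESeq2 1.42.0, scanpy 1.11.5, Python 3.11.15 and R 4.3.3 were also used, and the scripts were tested on simulated data. Between libraries the 10 genes each way whose interval lay farthest from 1 were named, and against each population the 15 with the largest log2 difference. In each list, the 3 genes with most UMIs could also be named, and others named in lists were chosen for their known roles after their values were seen. Gene positions and introns came from the mm10 annotation, matched for 32158 of 32285 genes (99.6%). Promoter sequences are from RefSeq (GRCm38.p6). A few genes that the rule would name are not reported here.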

Additional observations from a re-analysis of the deposited data

How the results depend on the processing

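The shares moved with the rule: with 2 rule genes they were 1.26, 1.56 and 2.61%, and with 4 rule genes 0.284, 0.344 and 1.12%. Thinned to 500 UMIs they were 0.357, 0.417 and 1.04%. Nuclei with at least 1000 UMIs, thinned to 1000, gave 0.251, 0.361 and 1.48%. In that setting the third share stayed near its 1.54% while the other shares fell, so the gap depends on the setting. Genes past the fold in doxorubicin against control numbered 161 higher and 95 lower with 2 rule genes, 12 and 12 with 4, 210 and 214 at 20 UMIs, 6 and 1 at 100 UMIs, 8 and 2 at 2-fold, and 14 and 10 with nuclei thinned to 500 UMIs. For doxorubicin plus ACY-1083 against doxorubicin they were 2275 and 1596 with 2 rule genes, 818 and 312 with 4, 2232 and 1334 at 20 UMIs, 413 and 122 at 100 UMIs, 807 and 274 less the ratio of all other nuclei, and 169 and 104 thinned. At 2-fold 273 were lower, and 723 were higher with the intron-length step. The cause was not tested. Less all other nuclei, the log2 ratio changed sign for Slc7a11 (0.98), Nfib (0.08) and Nrg3os (−3.50). Without the intron-length step it did so for Tshz2 (0.55), Ank2 (0.11), Nfib (0.45), Zfhx3 (0.23), Ank3 (0.24) and the median of the Wnt list (0.77). The BMP and TGF-beta median was −0.40 with 2 rule genes and −0.26 at 20 UMIs. Of the other values in this comparison, 114 for named genes kept to within their counting error and 38 moved, and in doxorubicin against control 152 kept and 8 moved. List medians kept in 94 and moved in 85 cases, and in 43 and 7.

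For the edgeR comparisons, removing the library as replicate block left 94 genes higher and 56 lower than in the remaining nuclei, 99 and 88 against choroid plexus, 13 and 10 against pericytes and 33 and 68 against endothelium, and 7 named genes lost their call against pericytes and 2 against endothelium. With no filter on low counts the calls were 1433 and 2141, 949 and 723, 158 and 29, and 326 higher than endothelium, of 26673 genes. With only the 2 populations compared in the fit they were 1431 and 2932 against the remaining nuclei, 301 higher than choroid plexus and 89 lower than pericytes. DESeq2 called 265 higher than choroid plexus, and 56 higher and 82 lower than pericytes. With 4 rule genes 274 were higher than choroid plexus. In alternatives chosen after seeing the data, 319 were higher than choroid plexus without the 2 clusters led by neuronal or astrocyte genes, and 261 were higher than endothelium with barcodes of at least 300 genes, under 5% mitochondrial UMIs and without the 5% highest Scrublet scores. The planned filter by Scrublet's own calls was not run. With each library left out in turn, calls ranged over 331 to 422 higher and 298 to 624 lower than in the remaining nuclei, 126 to 460 and 178 to 317 against choroid plexus, 56 to 81 and 47 to 137 against pericytes, and 116 to 141 and 111 to 182 against endothelium. The lowest counts came without the doxorubicin plus ACY-1083 library, when 1375 genes were tested. A fold of 2 gives list medians no other value. No named gene changed direction in the fits in which it was tested. The precision is limited by 76 to 188 nuclei and 73832 to 394267 UMIs a library.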
